A study of Drosophila melanogaster with 5 samples.

Results

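The chromatin accessibility of 9 core genes of the Notch pathway was examined in sorted cells of the adult Drosophila midgut, the insect's absorptive and endocrine gut epithelium. The genes were N, Dl, Su(H), H, neur, mib1, numb, kuz and Psn, taken from 13945 protein-coding genes on the chromosome arms. Each gene was given a window of its annotated body with 5 kb to each side (BDGP6), and every ATAC-seq peak that overlapped a window was counted as a peak of that gene. ATAC-seq maps accessible DNA by the insertions of the Tn5 transposase, and a peak is an interval where fragments are enriched over the local background of the same library. The windows together covered 304727 bp, or 0.228% of the arms, and held 29 of 8466 peaks in Pros-depleted EEs, 14 of 3269 in Ttk-depleted ECs, 34 of 9048 in EEs, 37 of 10048 in ECs and 37 of 9311 in progenitor cells.

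The 5 populations were 1 library each, so no test was made between them, and no spread between replicates could be given. Pros-depleted EEs carried prosV1-Gal4ts, UAS-GFP and UAS-pros-RNAi, which depletes the homeodomain factor Prospero in enteroendocrine cells (EEs). Ttk-depleted ECs carried Myo1A-Gal4ts, UAS-GFP, UAS-ttk-RNAi and a pros-mCherry allele, and were enterocytes (ECs) depleted of the BTB factor Tramtrack and sorted as GFP-weak and mCherry-positive. EEs carried prosV1-Gal4ts and UAS-GFP, ECs carried Myo1A-Gal4ts and UAS-GFP, and progenitor cells carried esg-Gal4ts and UAS-GFP. All crosses were raised at 18 °C, and adults of 5 to 7 days were moved to 29 °C to switch on the driver. Per the study's methods, the flies were females held at 29 °C for 7 days before sorting, with the esg, Myo1A and prosV1 genotypes listed alike. Peak names in the progenitor list carried the mark 5w, whose meaning was not given in the sources used here. What the mark stands for is unknown, and this bears on every comparison with progenitor cells. About 40000 cells from 100 to 150 pooled guts went into each library, so a library averages over many animals and over the gut regions they hold. The drivers limit what each population is: esg-Gal4 marks both intestinal stem cells and enteroblasts, and Myo1A-Gal4 marks young as well as old ECs. The paper also saw an enteroblast marker in several Myo1A-Gal4 cells and proposes that this driver is expressed in enteroblasts. The EC and progenitor sorts may thus share enteroblasts, and the part of this in regions common to both was not tested. The sort for mCherry, which tags Prospero, left out Ttk-depleted ECs that had not turned Prospero on. Resident EEs of the same guts also express Prospero, and whether any passed the GFP-weak gate was not tested.

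Notch signalling passes between touching cells. A ligand on one cell binds the receptor on its neighbour, ADAM metalloproteases and then γ-secretase cut the receptor, and the freed intracellular domain joins Su(H) on DNA to switch on target genes. In the adult midgut Dl is the marker of the intestinal stem cell, strong Notch activity in its daughter leads to the EC fate, and weak activity leads to the EE fate.

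At least 1 peak fell in the window of each of the 9 genes in Pros-depleted EEs, EEs, ECs and progenitor cells, whereas only 5 of 9 windows held one in Ttk-depleted ECs. The shares of all protein-coding genes with a peak by the same rule were 74.4% in Pros-depleted EEs, 31.9% in Ttk-depleted ECs, 76.5% in EEs, 80.3% in ECs and 76.5% in progenitor cells. The 9 windows were between 12689 bp (Psn) and 99273 bp (kuz) long, and a longer window is more likely to hold a peak. Shares among genes of like length were not computed, so the number of genes with a peak cannot be called particular to the Notch loci. The 4 genes without a peak in Ttk-depleted ECs were Dl, Su(H), mib1 and Psn. A summit, the position of highest enrichment in a peak, lay within 500 bp of a transcription start site (TSS) of 7 of the 9 genes in Pros-depleted EEs (37.9% of all protein-coding genes), 5 in Ttk-depleted ECs (10.9%), 8 in EEs (40.3%), 6 in ECs (34.2%) and 8 in progenitor cells (42.7%). The density of peaks in the windows was 9.52, 4.59, 11.2, 12.1 and 12.1 per 100 kb in Pros-depleted EEs, Ttk-depleted ECs, EEs, ECs and progenitor cells, against 6.32, 2.44, 6.76, 7.51 and 6.95 per 100 kb of the arms. The Notch loci thus held more peaks per length than the arms in every library, but the windows are built around genes and the arms are not. In the same order of libraries, 7, 2, 11, 7 and 9 of the window peaks had their summit near the TSS of a neighbouring gene only. The density over windows of other genes is not given here, so the excess cannot be called particular to the Notch loci.

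**Figure D1:**
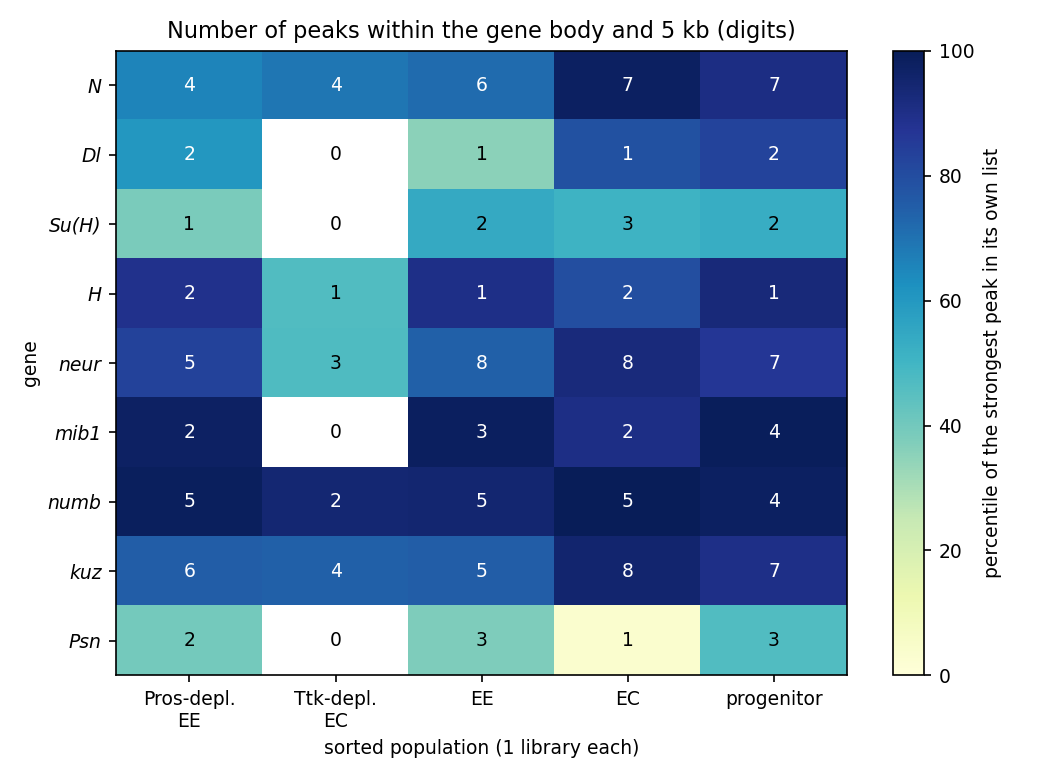
Number of ATAC-seq peaks at each Notch pathway gene (rows) in each sorted population (columns, 1 library each), with colour for the within-list percentile of the strongest peak, and white where there was none. The Ttk-depleted EC column is empty at Dl, Su(H), mib1 and Psn, and N held 4 peaks in each of the depleted populations, 6 in EEs, and 7 in ECs and in progenitor cells.

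The libraries differed in depth, which bears on every absence of a peak. Fragments at a summit, recovered from the peak statistics, had a median of 52 in Pros-depleted EEs, 8 in Ttk-depleted ECs, 65 in EEs, 52 in ECs and 103 in progenitor cells. At the Notch loci the summits held between 21 and 151 fragments in Pros-depleted EEs, between 6 and 13 in Ttk-depleted ECs, between 26 and 154 in EEs, between 30 and 246 in ECs, and between 41 and 362 in progenitor cells. The lowest local background of a peak, another measure of depth, was 7.75 fragments in Pros-depleted EEs, 0.422 in Ttk-depleted ECs, 9.92 in EEs, 14.9 in ECs and 12.4 in progenitor cells. Ttk-depleted ECs were lowest by both measures, but the order of the others differed, since fragments at a summit reflect enrichment as well as depth. Since fold enrichment over background depends on depth, peaks were compared by percentile, the rank of the fold enrichment within the peak's own list, where 100 is the strongest peak of that library. The median percentile of the Notch peaks was 50 in Pros-depleted EEs, 47.0 in Ttk-depleted ECs, 44.8 in EEs, 54.0 in ECs and 57.2 in progenitor cells, close to the middle of each list. Peaks near marker genes separated the labels only in part, since all 4 progenitor markers tested had a peak within 3 kb of a TSS in every library, the 4 EE markers had one at 3, 2, 4, 2 and 2 genes in Pros-depleted EEs, Ttk-depleted ECs, EEs, ECs and progenitor cells, and the 3 EC markers at 3, 2, 3, 2 and 3 genes.

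Dl encodes the ligand Delta, and no region of its locus was called in all 3 normal cell types. The gene lies on the minus strand at chr3R:19302731-19326217, and its window held no other protein-coding gene, so none of its peaks lay at a neighbour's promoter. An intronic region had a peak in Pros-depleted EEs, ECs and progenitor cells, and none in Ttk-depleted ECs or EEs. Its percentile was 23.0 in Pros-depleted EEs (2.86-fold over background, 24 fragments at the summit), 78.9 in ECs (4.34-fold, 68 fragments) and 82.7 in progenitor cells (8.67-fold, 119 fragments). The intronic region was therefore weak in Pros-depleted EEs and in the upper part of the EC and progenitor lists. The other region covered the TSS or began just upstream of it, and was called at percentile 60.5 in Pros-depleted EEs (4.46-fold, 38 fragments), 35.4 in EEs (3.21-fold, 34 fragments) and 57.2 in progenitor cells (5.58-fold, 74 fragments). At the Dl TSS no peak was called in ECs or Ttk-depleted ECs. Hence ECs carried the intronic region without the TSS region, EEs the TSS region without the intronic one, and progenitor cells and Pros-depleted EEs both.

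The sequence under the progenitor summit of the Dl intron, 4160 bp downstream of the TSS, is shown because this region separated EEs from the other normal types. It was read from chr3R:19321979-19322117 on the minus strand, with capitals at the one searched word it held, CAGGTG, an E-box bound by Snail family factors such as Escargot, which is read here from the opposite strand. The printed stretch of 139 bp runs further on 1 side of the summit, so that it ends with this word. The word lay within 100 bp of the progenitor and Pros-depleted EE summits of the region, but not of the EC summit. The 100 bases just before the TSS (chr3R:19326218-19326317), which hold the summits of the Pros-depleted EE, EE and progenitor peaks, held none of the searched words. 
Dl intron: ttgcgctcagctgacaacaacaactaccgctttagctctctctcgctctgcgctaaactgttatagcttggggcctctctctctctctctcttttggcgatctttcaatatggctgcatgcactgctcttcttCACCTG
Dl upstream: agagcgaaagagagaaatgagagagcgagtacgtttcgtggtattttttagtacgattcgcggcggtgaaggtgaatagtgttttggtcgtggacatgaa

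N encodes the receptor and lies on the plus strand at chrX:3134870-3172221. Its window held 8 regions after overlapping peaks of the 5 libraries were merged. At the TSS the percentile was 49.1 in Pros-depleted EEs, 26.1 in EEs, 88.8 in ECs and 74.9 in progenitor cells, while Ttk-depleted ECs had a pair of narrow peaks at 35.8 and 64.3. The TSS of the receptor gene was thus open in every library, at its lowest rank in EEs. An intronic region at chrX:3136415-3137089 was also called in all 5 libraries, at percentile 40.8 in Pros-depleted EEs, 53.0 in Ttk-depleted ECs, 17.8 in EEs, 97.9 in ECs and 91.0 in progenitor cells. The corresponding fragments at the summit were 31, 10, 27, 200 and 362. In this intron the EC and progenitor peaks stood near the top of their lists and the EE peak near the bottom of its list. A region 27492 bp downstream of the TSS, at the EC summit, had the same order, with percentile 52.8 in Pros-depleted EEs, 28.2 in EEs, 90.8 in ECs and 84.2 in progenitor cells, and no peak in Ttk-depleted ECs. Further intronic regions, with EC summits 8614 and 11928 bp from the TSS, had a peak in ECs (52.8 and 85.2) and progenitor cells (58.5 and 86.7) and in no other library. The remaining N regions were a weak EE peak in a coding exon (percentile 1.18) and the promoters of CG18508 and of CG3939 and dnc downstream, of which the last was open in all 5 libraries at percentiles between 65.5 and 79.3.

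The EC summits of 3 intronic N regions are printed as examples of the contrast between EEs and the other normal types. Their numbers give the order of printing and do not count the introns of the gene. They were read on the plus strand at chrX:3136737-3136857, chrX:3146738-3146858 and chrX:3162302-3162422. Capitals mark the core of the Su(H) site, searched as GTGGGAA or GTGAGAA on both strands. It was found on the opposite strand of the first, on the gene's strand of the last, and not in the middle one. In the last region no core lay within 100 bp of the EE or progenitor summit. The intronic region with its EC summit 8614 bp from the TSS, not printed, held a core within 100 bp of that summit.
N intron 1: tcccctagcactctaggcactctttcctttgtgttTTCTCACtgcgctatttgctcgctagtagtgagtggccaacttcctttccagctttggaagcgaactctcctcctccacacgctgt
N intron 2: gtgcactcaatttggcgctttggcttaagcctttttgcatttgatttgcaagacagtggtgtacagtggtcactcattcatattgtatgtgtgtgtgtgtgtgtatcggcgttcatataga
N intron 3: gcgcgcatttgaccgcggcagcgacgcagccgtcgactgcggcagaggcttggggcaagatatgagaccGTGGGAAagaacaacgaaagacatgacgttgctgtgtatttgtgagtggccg

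**Figure D2:**
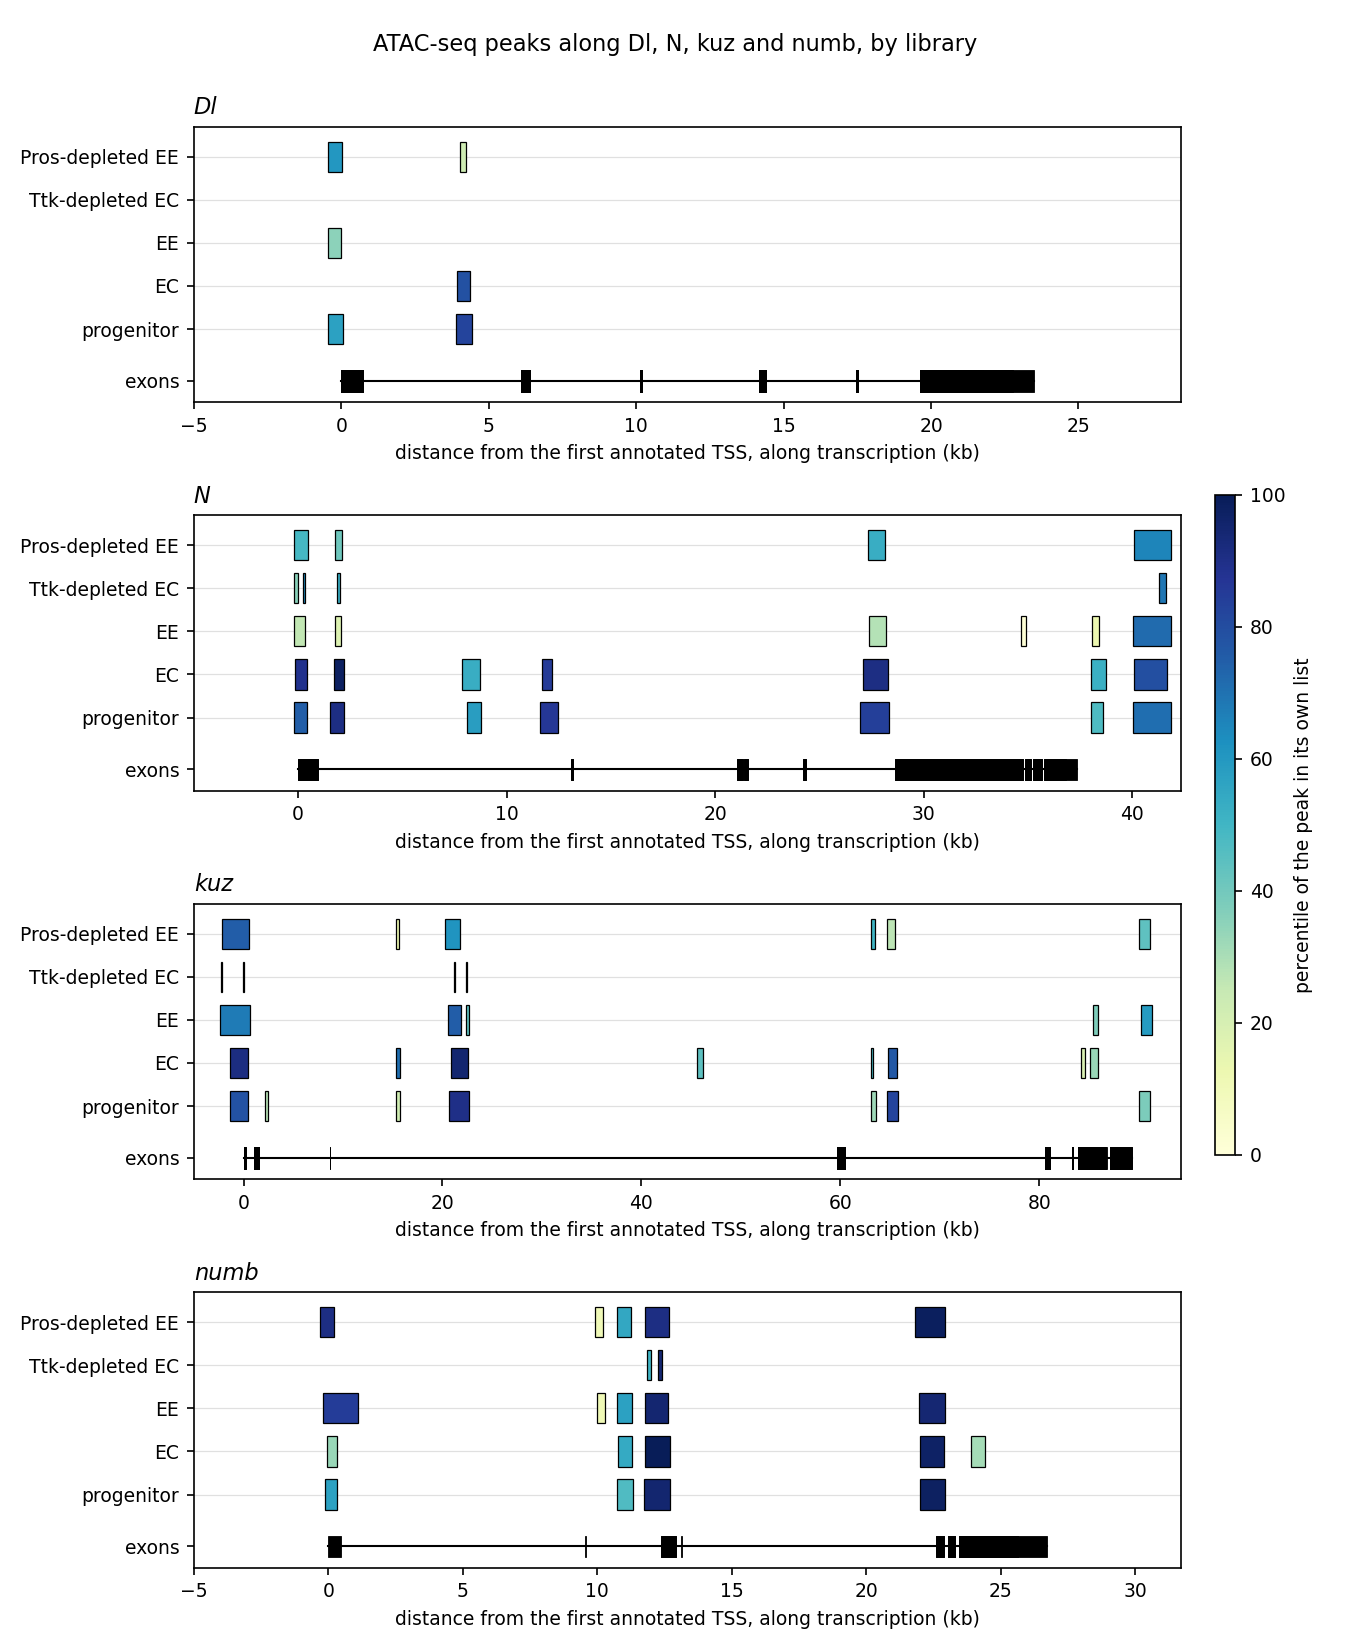
Peaks along Dl, N, kuz and numb by distance from the first annotated TSS in kb (5 kb of flank on each side), with 1 track per library, colour for the percentile within the peak's own list, and exons of all transcripts in black. The Dl intron has a peak in Pros-depleted EEs, ECs and progenitor cells only, and the N introns 8614 and 11928 bp from the TSS have a peak in ECs and progenitor cells only.

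Su(H), the DNA-binding factor on which the pathway ends, lies at chr2L:15039488-15043334. Its TSS peak was found in EEs, ECs and progenitor cells at percentiles 45.7, 36.4 and 53.0, and was not called in either depleted library. The promoter of the neighbouring CIAPIN1, upstream of Su(H), was called at 38.3 in Pros-depleted EEs, 54.2 in EEs, 50.9 in ECs and 28.6 in progenitor cells. Su(H) was the only member whose TSS peak was present in all 3 normal types and missing in Pros-depleted EEs. H encodes Hairless, the corepressor that binds Su(H) and keeps targets silent, and lies at chr3R:20621938-20628915. Its TSS was open in all 5 libraries, at percentile 88.8 in Pros-depleted EEs, 46.7 in Ttk-depleted ECs, 90.2 in EEs, 79.4 in ECs and 92.7 in progenitor cells. The antagonist thus had a strong promoter peak in every library but Ttk-depleted ECs, where it held 7 fragments. Another H region, in a coding exon, was an EC peak at percentile 46.9, and the last lay downstream at the promoter of Pi3K92E. At Su(H) the remaining region was a weak EC peak upstream, at percentile 9.71.

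neur and mib1 encode E3 ubiquitin ligases that make the ligand active by its endocytosis in the sending cell. neur (chr3R:9020348-9039471, minus strand) has 2 annotated TSSs. The region at the internal TSS was open in all 5 libraries, at percentile 49.2 in Pros-depleted EEs, 11.7 in Ttk-depleted ECs, 54.4 in EEs, 92.4 in ECs and 75.5 in progenitor cells. The region at the first TSS, which also lies at the promoter of hyx, was weaker, at 27.8, 29.1, 3.74 and 21.6 in Pros-depleted EEs, EEs, ECs and progenitor cells, with no peak in Ttk-depleted ECs. A region upstream of the gene, at chr3R:9043223-9044563, was open in all 5 libraries at 70.4 in Pros-depleted EEs, 47.2 in Ttk-depleted ECs, 29.1 in EEs, 86.7 in ECs and 86.6 in progenitor cells. As at the N introns, this upstream region ranked lowest in EEs. An intronic neur region had a peak in ECs (42.8) and progenitor cells (18.8) only, and another (chr3R:9025115-9025288) was the single Notch region without a peak in a normal type, called in Ttk-depleted ECs from 6 fragments. mib1 (chr3L:16006552-16011812, minus strand) had one of the strongest promoter peaks of the group, at 97.6 in Pros-depleted EEs, 98.4 in EEs, 90.6 in ECs and 99.1 in progenitor cells. Ttk-depleted ECs had no peak in the mib1 window. The other mib1 regions lay downstream of the gene, and their percentiles in the libraries that called them were between 0.644 and 56.6. At neur the regions not yet named lay at the promoters of Kcmf1, tgo and asRNA:CR31429 and in an intron, where the percentile was 36.9 in Pros-depleted EEs, 51.8 in EEs, 26.2 in ECs and 29.1 in progenitor cells.

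numb encodes the membrane-associated inhibitor that blocks Notch in the cell that inherits it. It lies at chr2L:9437469-9464184 and has 2 annotated TSSs. The internal TSS was open in all 5 libraries and near the top of all 5 lists, at percentile 91.0 in Pros-depleted EEs, 94.9 in EEs, 99.9 in ECs and 95.3 in progenitor cells, with Ttk-depleted EC peaks at 50.4 and 94.5. The first TSS differed more between cell types, at 90.8 in Pros-depleted EEs, 85.0 in EEs, 33.0 in ECs and 57.2 in progenitor cells, with no peak in Ttk-depleted ECs. ECs therefore ranked the internal start far above the first one, and both EE libraries had both starts high. Another strong region, whose progenitor summit lay in an intron 22512 bp from the first TSS, was at 98.6 in Pros-depleted EEs, 94.5 in EEs, 96.9 in ECs and 97.7 in progenitor cells, and had no Ttk-depleted EC peak. Of the remaining numb regions, an intronic one was called in both EE libraries only, at 10.3 in Pros-depleted EEs and 11.3 in EEs. Another was at 54.8 in Pros-depleted EEs, 57.3 in EEs, 54.0 in ECs and 47.2 in progenitor cells, and a coding exon had an EC peak at 31.2.

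kuz encodes Kuzbanian, the ADAM metalloprotease of the first cut, and Psn encodes Presenilin, the catalytic subunit of γ-secretase. kuz (chr2L:13550139-13639411) is the longest member and held 10 regions. A wide peak covered its TSS in 4 libraries, at 75.1 in Pros-depleted EEs, 67.9 in EEs, 91.3 in ECs and 78.5 in progenitor cells, but its summit lay upstream of kuz, near the TSS of B4. Ttk-depleted ECs had a narrow peak at the kuz TSS itself (74.3) and one at B4 (22.7). A set of 3 intronic kuz regions were called in Pros-depleted EEs, ECs and progenitor cells but not in EEs or Ttk-depleted ECs, which is the pattern of the Dl intron. The first, with its EC summit 15573 bp from the TSS, was at 13.0 in Pros-depleted EEs, 70.8 in ECs and 22.0 in progenitor cells. The second, 63175 bp from the TSS, was at 50, 49.6 and 32.2 in the same libraries, and the last, 65047 bp away, at 26.8, 76.6 and 82.8. The intron region with its EC summit 21261 bp from the TSS was open in all 5 libraries, at 61.7 in Pros-depleted EEs, 34.6 for the stronger of 2 peaks in Ttk-depleted ECs, 75.2 in EEs, 95.3 in ECs and 89.9 in progenitor cells. The other kuz regions were a progenitor peak in an intron (28.1), EC peaks in introns (44.5 and 19.3), a coding exon called in EEs (37.5) and ECs (33.0), and the promoter of ics downstream. The sequence at the EC summit of the region 63175 bp from the TSS (chr2L:13613254-13613374, plus strand) is shown because it held a Su(H) core, in capitals and on the opposite strand.
kuz intron: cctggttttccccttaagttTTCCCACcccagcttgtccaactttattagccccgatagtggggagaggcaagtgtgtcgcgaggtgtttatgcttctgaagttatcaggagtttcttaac

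The Psn locus (chr3L:20432468-20435156) had weak peaks in every library that called any, the strongest at percentile 46.8. Its TSS region, shared with the promoter of Las, had no peak in ECs or Ttk-depleted ECs, and lay at 14.2 in Pros-depleted EEs and at 34.8 and 35.9 in EEs and progenitor cells. The EC list held a single weak Psn peak upstream, at percentile 3.39. The other regions of the window lay at the promoter of CG5262, at 14.9 in EEs and 24.6 in progenitor cells, and at that of CtIP and mRpL15, at 39.8 in Pros-depleted EEs and at 37.5 and 46.8 in EEs and progenitor cells. Dl and Psn were thus the members whose TSS region was called in EEs and progenitor cells but not in ECs.

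Sharing among the normal cell types was next counted over the 49 merged regions of the 9 windows, of 15196 in all. A region was counted by all peaks merged into it, also where a library's own peak began just outside the window, as at the promoters of Pi3K92E and Kcmf1. Of the 48 Notch regions with a peak in a normal type, 23 were open in all 3 normal types, a share of 47.9% (95% Wilson interval 34.5 to 61.7%), against 36.3% of all 14325 such regions. The interval, which covers counting error only and takes neighbouring regions as independent, included the share of all regions. A further 7 regions (14.6%) were open in ECs and progenitor cells but not EEs, against 10.5% of all regions, and 6 (12.5%) in EEs and progenitor cells but not ECs, against 7.92%. EEs alone held 2 Notch regions (4.2%), against 15.4% of all regions, and this was the one of these classes in which the background share of all regions lay above the Wilson interval (1.2 to 14.0%). ECs alone held 6 (12.5%), against 19.3% of all regions, progenitor cells alone 2 (4.2%), against 8.62%, and EEs and ECs together 2 (4.2%), against 1.88%.

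**Figure D3:**
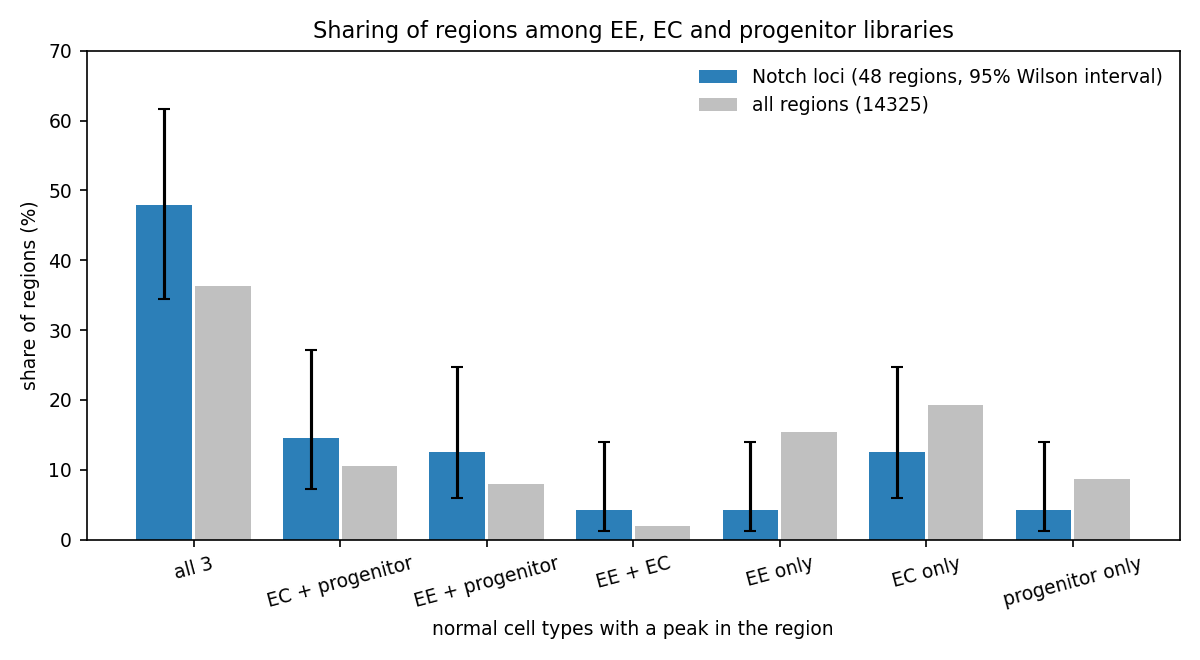
Share of regions (%) by the normal cell types that have a peak there, for the Notch loci (blue, 48 regions, bars with 95% Wilson intervals) and all regions (grey, 14325). Regions open in all 3 types made up 47.9% of the Notch regions and 36.3% of all regions, and regions of EEs alone 4.2% and 15.4%.

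The regions were next counted by position. Of the 49 regions, 11 lay over a TSS of the member itself by a summit of at least 1 library. Of these, 9 were open in all 3 normal types and the other 2, at Dl and Psn, in EEs and progenitor cells. The kuz region among the 9 was counted by its Ttk-depleted EC summit only. In the 3 normal types its wide peaks covered the kuz TSS, but their summits lay near the TSS of B4. In another 10, 6 of them open in all 3 normal types, every summit lay near the TSS of a neighbouring gene, and 28 lay elsewhere, of which 8 were open in all 3. All 7 regions of ECs and progenitor cells without EEs were elsewhere, 2 at N, 1 at Dl, 1 at neur and 3 at kuz, and each had its summits in an intron. None of the 8 regions found in ECs alone or progenitor cells alone lay over a TSS. As background, a summit within 500 bp of a TSS of any gene was found in 22 of the 49 Notch regions (44.9%), against 44.3% of all regions. By class, the counts were 15 of 23 Notch regions of all 3 normal types, against 71.6% of all such regions, 0 of 7 of ECs and progenitor cells, against 28.1%, and 6 of 6 of EEs and progenitor cells, against 68.5%. Peaks of all 5 libraries were found in 9 regions, 3 at N, 2 each at neur and kuz, and 1 each at H and numb. Shares over all regions were not computed for regions of ECs or progenitor cells alone, for those over a gene's own TSS, or for those of all 5 libraries. These counts therefore cannot be called particular to the Notch loci.

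Depletion of Pros was then compared with normal EEs. Of the 34 EE peaks at the Notch loci, 26 overlapped a Pros-depleted EE peak (76.5%, Wilson interval 60.0 to 87.6%), the same as the share of all EE peaks (76.2%). Conversely, 25 of the 29 Pros-depleted EE peaks overlapped an EE peak (86.2%) and 28 overlapped a progenitor peak (96.6%, interval 82.8 to 99.4%), against 81.9% and 80.1% of all Pros-depleted EE peaks. Progenitor cells, but not EEs, had a peak in 9 Notch regions, and 4 of these were open in Pros-depleted EEs, against 29.2% of all such regions. These 4 (44.4%, interval 18.9 to 73.3%) were the Dl intron and the 3 kuz introns, and the 5 without a peak were 2 N introns, 1 neur intron and a progenitor-only region each at mib1 and kuz. In Pros-depleted EEs the −log10 q was 4.6 at the Dl intron (24 fragments) and 3.1, 10.3 and 5.3 at the kuz introns (21, 35 and 26 fragments). The Dl intron and the first kuz intron thus fell below the −log10 q of 5 used as an alternative setting. The count was not repeated at that setting. EEs, but not progenitor cells, had a peak in 4 Notch regions, and 1 of these was open in Pros-depleted EEs, against 37.5% of all. Of 29 regions open in both EEs and progenitor cells, 25 (86.2%) were open in Pros-depleted EEs, against 91.4% of all.

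Among the 26 Notch regions with a peak in both Pros-depleted EEs and EEs, the median percentile was 56.3 in Pros-depleted EEs and 54.3 in EEs, and the median of the differences was −1.2 points (quartiles −5.8 and 13.1), against −0.8 points over all 6719 such regions (quartiles −12.1 and 8.7). Regions that ranked at least 20 percentile points higher in Pros-depleted EEs numbered 6 of 26 at the Notch loci, against 11.5% of all regions, and 1 of 26 ranked at least 20 points lower, against 15.2%. The limit of 20 points was chosen after the values were seen. The 6 regions were the N TSS (difference 23.0), the N introns at 1927 and 27492 bp (23.0 and 24.6), the Dl TSS (25.1), the neur upstream region (41.3) and the promoter of tgo beside neur (43.8). The 1 lower region was the Psn TSS (−20.6). The receptor and ligand genes therefore ranked higher at their TSSs in Pros-depleted EEs than in EEs, while the TSS of H differed by −1.4 points and that of mib1 by −0.8. By the rank of −log10 p in place of fold enrichment, a setting added after the values were seen, 4 rather than 6 regions ranked at least 20 points higher (10.5% of all regions) and 0 rather than 1 at least 20 points lower (14.7% of all regions). The N TSS then stood at 38.4 in Pros-depleted EEs and 17.2 in EEs, and the Dl TSS at 45.5 in Pros-depleted EEs and 25.3 in EEs. Both N introns were just short of the limit, at 29.9 in Pros-depleted EEs and 10.9 in EEs for the one at 1927 bp, and at 40.0 in Pros-depleted EEs and 20.6 in EEs for the one at 27492 bp, and the Psn TSS stood at 10.3 in Pros-depleted EEs and 24.8 in EEs. The summits behind the N and Dl values held between 27 and 38 fragments in these 2 libraries, and with 1 library each the spread of such differences between replicates was not measured.

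**Figure D4:**
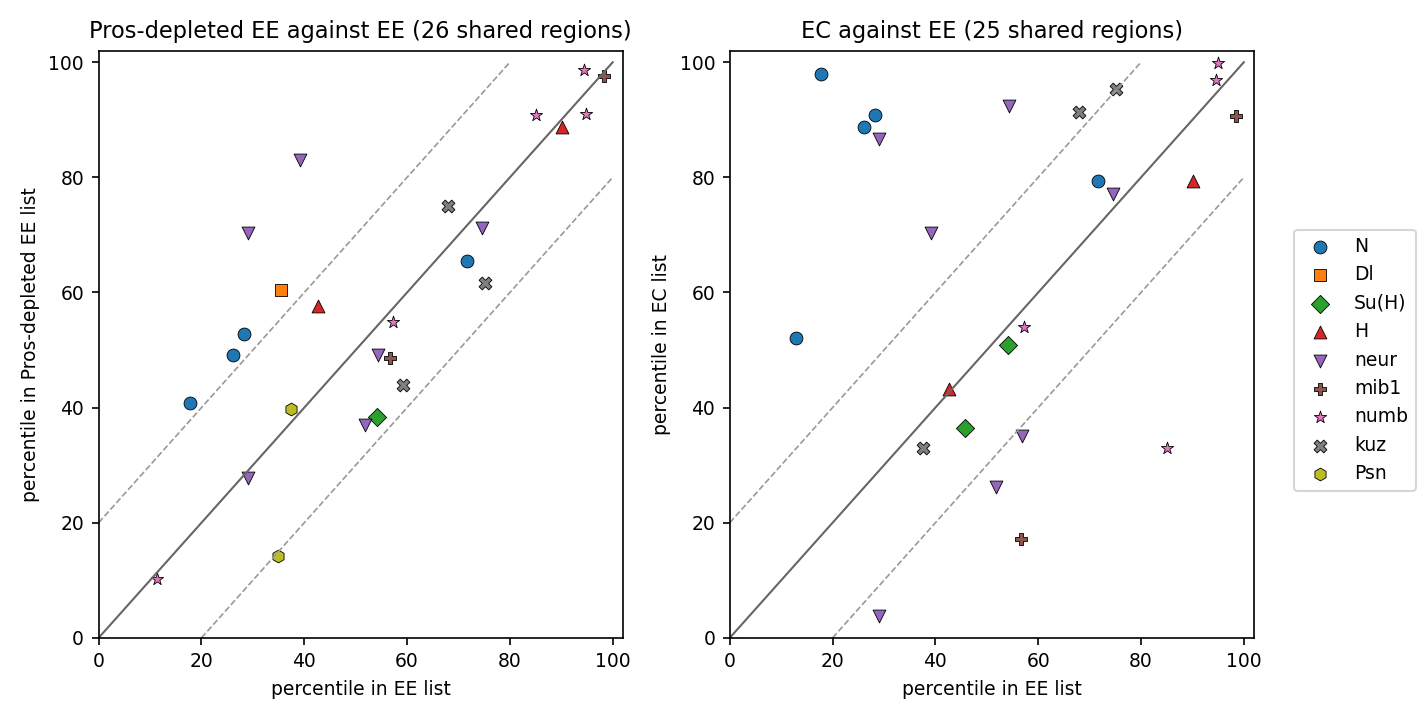
Within-list percentile of Notch regions in Pros-depleted EEs (left, vertical axis) and in ECs (right, vertical axis) against EEs (horizontal axes), 1 point per shared region, with the line of equality and dashed lines 20 points to each side. N regions lie above the upper dashed line in both plots, at differences of 23.0 to 24.6 points on the left and of 39.2 to 80.1 points on the right, apart from the region at CG3939 and dnc. The value of 39.2 belongs to the promoter of the neighbouring CG18508.

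ECs were compared with EEs in the same way. Of 25 shared Notch regions, 9 ranked at least 20 points higher in ECs, against 25.3% of all 5473 shared regions, and 5 ranked at least 20 points lower, against 14.1%. Counted by window, the higher regions were 4 at N, 3 at neur and 2 at kuz, and the lower ones were 3 at neur and 1 each at mib1 and numb. Some of these lay at promoters of neighbouring genes, namely CG18508 in the N window (39.2 points) and tgo and asRNA:CR31429 in the neur window (31.2 and −21.9). A kuz region (23.4) was the wide peak with its summit near B4.

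Depletion of Ttk was compared with normal ECs in the same way. Of the 37 EC peaks at the Notch loci, 9 overlapped a Ttk-depleted EC peak (24.3%, interval 13.4 to 40.1%), close to the 23.0% of all EC peaks. The overlap went with peak strength, since 0 of 15 EC peaks up to percentile 50 were found in Ttk-depleted ECs (3.52% of all EC peaks there), 4 of 14 between 50 and 90 (32.9%), and 5 of 8 above 90 (80.7%). The 3 EC peaks above 90 that were not found were the mib1 TSS, the N intron at 27492 bp and the numb intron. Of the 13 regions called in ECs but not EEs, 0 were open in Ttk-depleted ECs, against 6.86% of all, a count whose Wilson interval reached 22.8%. Of the 25 regions open in both EEs and ECs, 9 (36.0%) were open in Ttk-depleted ECs, against 37.1%, and 0 of the 8 regions called in EEs but not ECs were open in them, against 5.08%. Of the 14 Ttk-depleted EC peaks, 12 overlapped an EC peak (85.7%), 13 an EE peak (92.9%) and 12 a progenitor peak (85.7%), against 82.0%, 77.9% and 86.0% of all Ttk-depleted EC peaks. When each list was cut to its strongest 3269 peaks, the number in the Ttk-depleted EC list, the Notch windows held 10 peaks in Pros-depleted EEs, 14 in Ttk-depleted ECs, 9 in EEs, 18 in ECs and 17 in progenitor cells, so the number of peaks in Ttk-depleted ECs was no longer the lowest. The number of genes with a peak was then 6 in Pros-depleted EEs, 5 in Ttk-depleted ECs, 6 in EEs, and 7 each in ECs and progenitor cells. The share of all genes with a peak was not computed at this setting. The cut made the lists equal in length but not in depth. The part of depth in the absence of peaks from Ttk-depleted ECs was not tested.

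Words for DNA-binding sites were searched within 100 bp to each side of each summit on both strands. The Su(H) core (GTGGGAA or GTGAGAA) was found at 2 of 29 Notch summits in Pros-depleted EEs, 2 of 14 in Ttk-depleted ECs, 2 of 34 in EEs, 5 of 37 in ECs and 3 of 37 in progenitor cells. Among all summits of the same lists the shares were 5.06%, 6.03%, 5.06%, 4.73% and 5.00%. In ECs the 5 summits were 3 in N introns, 1 in the kuz intron printed above and 1 at the Kcmf1 promoter. The Snail family E-box CAGGTG was found at 3, 0, 2, 4 and 3 summits in the same order of libraries, against 8.09%, 6.33%, 8.82%, 10.4% and 6.58% of all summits. The Ttk69 core AGGACC was found at 1 Notch summit, an EE peak in a kuz coding exon, against 2.00%, 3.06%, 2.29%, 3.53% and 1.61% of all summits. A match describes the sequence and is not evidence of binding.

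Among 20 other genes of the pathway, 18 had a peak in Pros-depleted EEs, 10 in Ttk-depleted ECs, 17 in EEs, 20 in ECs and 18 in progenitor cells, and the summit was near a TSS for 11, 8, 12, 12 and 13 of them. Ser, which encodes the other Notch ligand, and pen-2, a γ-secretase subunit, had 2 peaks each in ECs and none in the other libraries. As at Dl, neither of these 2 genes had an EC summit within 500 bp of a TSS. The genes whose strongest peaks ranked most like those of Dl across the 5 libraries were EloB, CG5412 and TFAM (Euclidean distance over 5 percentiles 8.37, 8.37 and 8.54), and those most like N were LRR, larp and CG12290 (4.90, 8.23 and 8.63). EloB and CG5412 had the same 5 values, at 63.7 in Pros-depleted EEs, 0 (no peak) in Ttk-depleted ECs, 34.7 in EEs, 79.1 in ECs and 75.0 in progenitor cells, beside 60.5, 0, 35.4, 78.9 and 82.7 at Dl. TFAM had these values too, apart from 1.7 in Ttk-depleted ECs. With these values alike and all 3 genes on chromosome arm 3R, they probably share the same peaks and are not independent matches. The values compared are those of the strongest peak in a window. At Dl this peak was the TSS region in Pros-depleted EEs and EEs, and the intronic region in ECs and progenitor cells.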

How the data were processed

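Peak lists of ATAC-seq libraries made by the authors from 5 sorted cell populations were used, 1 library of each. Some lists name their peaks with rep1 or rep2, so other libraries may have been made, and these were not analysed here. Per the study's methods, trimming was done with Cutadapt and mapping to BDGP6 with bowtie2 (version 2.2.4 in the submitters' notes). Blacklisted regions, multimapped reads and PCR duplicates were taken out before MACS3 called peaks on each sample. The deposited peak lists give for each peak the fold enrichment ratio at the summit over the local background, computed by the authors with MACS3. They also give the −log10 p and −log10 q that the authors obtained from the same caller, all at a q under 0.05. Reads and read totals were not used here, and depth per library was not given in the sources used here.

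Peaks on 6 chromosome arms were kept, which left out 25 to 108 peaks per library. Genes and TSSs came from Ensembl release 115 (BDGP6), where Dl is named Delta, and sequences from the RefSeq genome of the same build. Peaks of the 5 lists that touched or overlapped were merged into regions, and sharing meant an overlap of at least 1 bp. Fragments at summits were recovered by inverting the Poisson model of MACS (pseudocount 1), solved for 97.62% to 100% of peaks per list. Tested on simulated data, the inversion returned 100% of the planted values for 2999 peaks at high depth and for 3000 at low depth. Shares carry 95% Wilson intervals, which cover counting error only.

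All 9 members were named with every peak counted. Of the other pathway genes, only those with a peak in none or in exactly 1 of the 3 normal types were named, and for Dl and N the 3 genes elsewhere with the nearest percentiles. Neighbouring genes were named where a summit lay within 500 bp of their TSS. The members, lists and motifs were chosen with earlier results of these data known. Alternatives changed the window, the q threshold, the number of peaks, the overlap rule, merging and the value ranked. Scripts ran on Python 3.11.15 (pandas 2.3.3, numpy 2.4.6, matplotlib 3.10.9, SciPy 1.17.1).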

Additional observations from a re-analysis of the deposited data

How the results depend on the processing

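Of 158 values recomputed under alternative settings, 123 moved by less than the limit set for each kind of value (1.5-fold for a count, the Wilson interval for a share and 10 points for a median percentile) and 35 by more. With windows of 3 kb around TSSs, peaks numbered 16 in Pros-depleted EEs, 9 in Ttk-depleted ECs, 17 in EEs, 16 in ECs and 18 in progenitor cells, and Pros-depleted EEs shared 88.2% of EE peaks. With the gene body alone, EEs had 22 peaks and the median percentile was 70.8 in ECs and 74.9 in progenitor cells. At a −log10 q of at least 5, Ttk-depleted ECs had 3 peaks, at 3 genes and at the TSSs of 3, and 10.7% of EC peaks were found in them. At a −log10 q of at least 10, Ttk-depleted ECs had 0 peaks, 0 genes and 0 genes with a TSS peak, so 0.0% of EC peaks were found there; Pros-depleted EEs had 19 peaks, EEs 21 and ECs 19, 32.4% of regions were open in all 3 normal types, and EEs had a TSS peak at 5 genes. With the strongest 3269 peaks of each list, there were 10 peaks in Pros-depleted EEs, 9 in EEs, 18 in ECs and 17 in progenitor cells, Pros-depleted EEs shared 100% of EE peaks and Ttk-depleted ECs 50% of EC peaks, and TSS peaks were at 3 genes each in Pros-depleted EEs and EEs and at 5 in progenitor cells. EC peaks found in Ttk-depleted ECs made up 0.0% at an overlap of at least 50% of each peak and 5.4% when a summit had to lie inside the other peak. At the Notch loci Ttk-depleted EC peaks were 90 to 299 bp wide, and EC peaks 215 to 1828 bp. A narrow peak cannot cover 50% of a far wider one and rarely holds its summit, so these values do not measure a loss of sharing. When the interval of a peak had to cover the TSS, a setting chosen after seeing the data, 3 genes had a TSS peak in Ttk-depleted ECs. By ranks of −log10 p, 0 rather than 1 region was at least 20 points lower in Pros-depleted EEs than in EEs, a setting also added after seeing the data for these counts. Beyond the peak widths, and beyond stricter settings keeping fewer peaks by construction, the causes of these shifts were not tested. No value moved past its limit with a 3 kb flank, peaks within 250 bp merged, summits inside the window, summits within 250 bp of a TSS, or neighbours' TSS peaks left out. No paired analysis was possible because each population had 1 library and no test was made. Depth limits what absence of a peak shows, since summits in Ttk-depleted ECs held 6 to 13 fragments at these loci.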
